A study of Rattus norvegicus with 10 samples.

Results

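The 25 genes described here were nuclear genes of the mitochondrial respiratory chain, the mitochondrial ribosome and the mitochondrial import machinery. They were the genes whose symbol began with one of 12 family prefixes (Nduf, Sdh, Uqcr, Cox, Atp5, Mrpl, Mrps, Timm, Tomm, Coq, Mt- and Tmem126) among the 1999 genes to which the study's supplementary table of knockdown results gave a name, out of 32402 genes in the count table. That table is ordered by the p-value of the knockdown contrast in the same samples, so membership was fixed by the contrast whose values follow. The differences between knockdown and control are therefore a description of these genes, and none of the counts of genes past a threshold is evidence for them. The chain gave 14 genes (4 subunits of the complexes, 6 assembly factors and 4 genes of coenzyme Q synthesis), the ribosome 7 and import 4. No gene starting with Uqcr, Mt- or Tmem126 was named.

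Poly(A) RNA was sequenced from the supraoptic nucleus (SON) of 5 male Sprague Dawley rats of 250 to 274 g, whose age is not given in the sources used here. The SON is a hypothalamic nucleus whose magnocellular neurones make vasopressin and oxytocin, and Creb3l1 is a transcription factor of these neurones. Each animal carried both arms: an adeno-associated virus (AAV1/2) with a non-targeting control short hairpin RNA (shRNA) in the left SON, and the same kind of virus with a Creb3l1 shRNA in the right SON. Tissue was taken as a 1 mm punch 3 weeks after injection, one library per SON, so there were 5 control and 5 knockdown SONs, named below by animal.

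Every control SON was a left SON and every knockdown SON a right one, so that side and treatment cannot be told apart. The promoter that drives the shRNA is not given in the sources used here, and a punch holds neurones, glia and vessels, so that fewer cells of a type and less RNA per cell cannot be told apart either. Counts summed to between 29020948 and 34382889 per SON. Creb3l1 stood between 20.3 and 33.5 CPM (counts scaled to library size, with TMM factors) in the control SONs and between 7.10 and 16.7 in the knockdown SONs, a log2 fold change of -1.16 (SE 0.24). Across all genes, 1280 of 16286 tested passed an adjusted p of 0.05 in edgeR's quasi-likelihood test (548 higher and 732 lower in knockdown), and 42.8% of these were higher. This share was 23.6% when only library size was used for scaling.

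Mitochondria make ATP by passing electrons along protein complexes of the inner membrane (complexes I to IV, linked by the lipid carrier coenzyme Q) and using the proton gradient so built to drive the ATP synthase. A few core subunits are encoded by mitochondrial DNA and translated on the mitochondrion's own ribosome, whose proteins, like most subunits and all the assembly factors, are encoded in the nucleus. These nuclear products are made in the cytosol and enter through the TOM complex of the outer membrane, with small Tim chaperones guiding hydrophobic carriers across the intermembrane space. Magnocellular neurones are known for a heavy load of peptide synthesis and secretion.

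Promoter sequence was available for 20 of the 25 genes, from RefSeq on the rat build GRCr8, as 300 bases from 250 before to 50 after the gene start. Coq2, Coq4, Tomm34, Mrpl16 and Ndufb9 were not matched, and Atp5a1 and Mrps36 were matched through their RefSeq symbols Atp5f1a and Kgd4. The letters CCGGAAG, the core bound by ETS factors such as GABP (also called nuclear respiratory factor 2), were searched on both strands, where the reverse strand reads CTTCCGG. They stood in 10 of the 20 promoters (50.0%), against 9.22% of 27457 promoters in the RefSeq table, 11.2% of 19005 promoters of protein-coding genes and 18.4% of the 1449 promoters found for genes named in the study's table. The 10 were 7 of 11 promoters of genes lower in knockdown and 3 of 9 of genes higher in knockdown. These letters also lie within a motif that the study identified in Creb3l1 ChIP-seq data, whose best known match was an Elf4 site. Active Creb3l1 lowered the activity of a reporter driven by repeats of that motif in every cell line assayed. The study proposes that the motif acts as a repressor element. A link between Creb3l1 and these letters in the 20 promoters was not tested.

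For each role, the gene with the largest change among those with these letters before the gene start is shown to let the letters be read in context, as the 250 bases before the start, 5′ to 3′ on the gene's strand, with CCGGAAG or CTTCCGG in capitals. The windows are chr9:46417587-46417836 (plus strand) for Cox5b, chr13:92599709-92599958 (plus) for Cox20, chr1:91654053-91654302 (plus) for Coq8b, chr2:32473954-32474203 (plus) for Mrps27 and chr11:56886277-56886526 (minus) for Tomm70.
Cox5b: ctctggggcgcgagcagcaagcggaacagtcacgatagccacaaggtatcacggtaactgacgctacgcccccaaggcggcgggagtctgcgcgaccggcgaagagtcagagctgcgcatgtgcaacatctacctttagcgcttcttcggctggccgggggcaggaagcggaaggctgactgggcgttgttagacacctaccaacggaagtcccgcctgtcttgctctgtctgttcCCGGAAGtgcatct
Cox20: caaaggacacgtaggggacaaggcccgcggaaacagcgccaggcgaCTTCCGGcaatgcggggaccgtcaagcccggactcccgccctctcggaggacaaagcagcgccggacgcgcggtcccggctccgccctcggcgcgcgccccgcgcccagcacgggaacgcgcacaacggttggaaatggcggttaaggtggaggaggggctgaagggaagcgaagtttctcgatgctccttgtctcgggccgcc
Coq8b: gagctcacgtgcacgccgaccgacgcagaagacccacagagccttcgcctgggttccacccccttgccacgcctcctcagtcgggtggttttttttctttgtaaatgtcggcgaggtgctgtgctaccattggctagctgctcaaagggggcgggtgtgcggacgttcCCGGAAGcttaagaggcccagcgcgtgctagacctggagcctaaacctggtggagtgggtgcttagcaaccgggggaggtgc
Mrps27: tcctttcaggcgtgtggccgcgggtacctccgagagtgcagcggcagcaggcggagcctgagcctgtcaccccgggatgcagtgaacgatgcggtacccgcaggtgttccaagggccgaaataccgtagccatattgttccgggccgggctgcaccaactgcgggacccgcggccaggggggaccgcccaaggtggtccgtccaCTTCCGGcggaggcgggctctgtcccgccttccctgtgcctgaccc
Tomm70: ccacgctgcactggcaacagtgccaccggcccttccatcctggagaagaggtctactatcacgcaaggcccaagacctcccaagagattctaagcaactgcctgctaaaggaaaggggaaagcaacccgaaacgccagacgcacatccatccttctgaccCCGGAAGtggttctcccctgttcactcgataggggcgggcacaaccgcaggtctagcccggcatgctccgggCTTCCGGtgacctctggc
With the first base of the gene counted as 0, the match began at -14 in Cox5b, -204 in Cox20, -82 in Coq8b and -46 in Mrps27, and Tomm70 held a pair of matches, at -90 and -18. Timm10 had 3 matches, a pair of which overlap each other, and the 1 match of Mrps26 began at +17, inside the gene. A match is a description of letters, not a bound site or a cause of any change, and Cox5b and Cox20, which were higher in knockdown, held the letters as did Tomm70, which was lower.

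The other letters searched stood in fewer of these promoters, and no match overlapped a match of other letters. All but the first of those listed below also lie, on 1 strand, within motifs that the study identified in Creb3l1 ChIP-seq data. The motif with the E-box best matched a known Creb3l1 binding sequence. TGCGCA, the core of the nuclear respiratory factor 1 element, stood in 3 of 20 (15%, Cox5b, Sdhaf3 and Ndufb10) against 7.68% of all promoters and 14.2% of those of named genes. CACGTG, an E-box, stood in 3 (15%, Coq8b, Timm9 and Timm10) against 6.65% and 9.66%. TGACGT (reverse strand ACGTCA), the core of the cyclic AMP response element recognised by the CREB and ATF family, stood in 1 (5.0%, Ndufaf2) against 8.22% and 13.6%. ACTACAA (reverse strand TTGTAGT) was in none of the 20, against 3.4% and 3.11%.

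The 25 genes did not move one way. In knockdown 13 were lower and 12 were higher, with a median log2 fold change of -0.27, against 0.04 over all genes tested and -0.29 over the 1990 tested genes that carry a name. The sizes lay between 0.26 and 1.09 on the log2 scale with a median of 0.44 (all genes, 0.20, and the named genes, 0.46). The 14 respiratory chain genes (6 lower, 8 higher) had a median of 0.34, the 7 ribosomal genes (5 lower, 2 higher) of -0.33 and the 4 import genes (2 and 2) of 0.03, while the median sizes were alike at 0.46, 0.43 and 0.45, differences that were not tested.

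All 25 passed the filter on low counts. Of them 15 were past the threshold, 8 lower and 7 higher, where 7.86% of all genes tested were past it (4.49% lower, 3.36% higher), and the rule that chose the genes used this contrast. In 23 genes the knockdown SON lay on the same side of the control SON in all 5 animals (20% of all genes), and in 17 the 5 control and 5 knockdown SONs did not overlap (9.65%). The 25 were drawn from the named genes, where such values were common. Of the 1990 tested genes with a name, 1271 were past the threshold. On the same side in all 5 animals were 1832 of them, and 1379 did not overlap. A fit with animal as a blocking term, which pairs the SONs, left none of the 25 past the threshold, where 0.0553% of all genes were. In that fit 24 of the 25 had an unadjusted p under the same limit, as did 2996 of the 16286 genes tested. DESeq2, the tool with which the study ordered its table, put all 25 past it (11.8% of all genes).

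**Figure D1:**
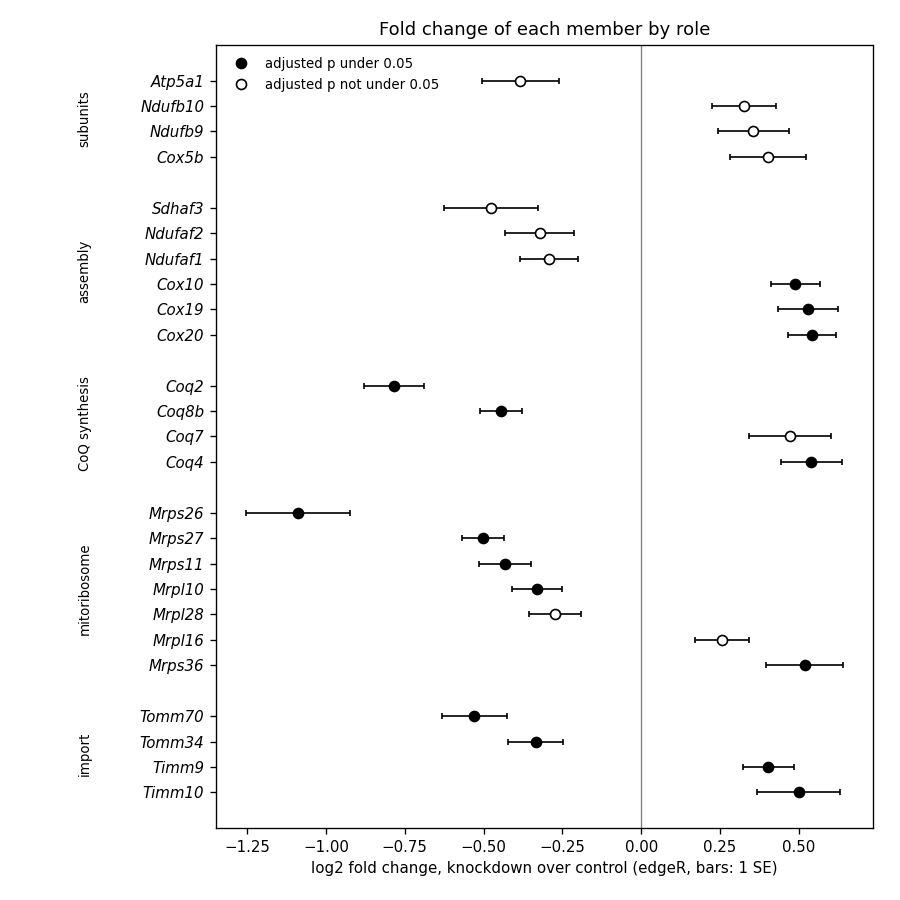
Log2 fold change of each of the 25 genes, knockdown over control, with 1 SE as the bar, grouped by role; filled circles have an adjusted p under 0.05 in edgeR. Every role holds genes on both sides of 0, and the values run from -1.09 in Mrps26 to 0.54 in Cox20.

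**Figure D2:**
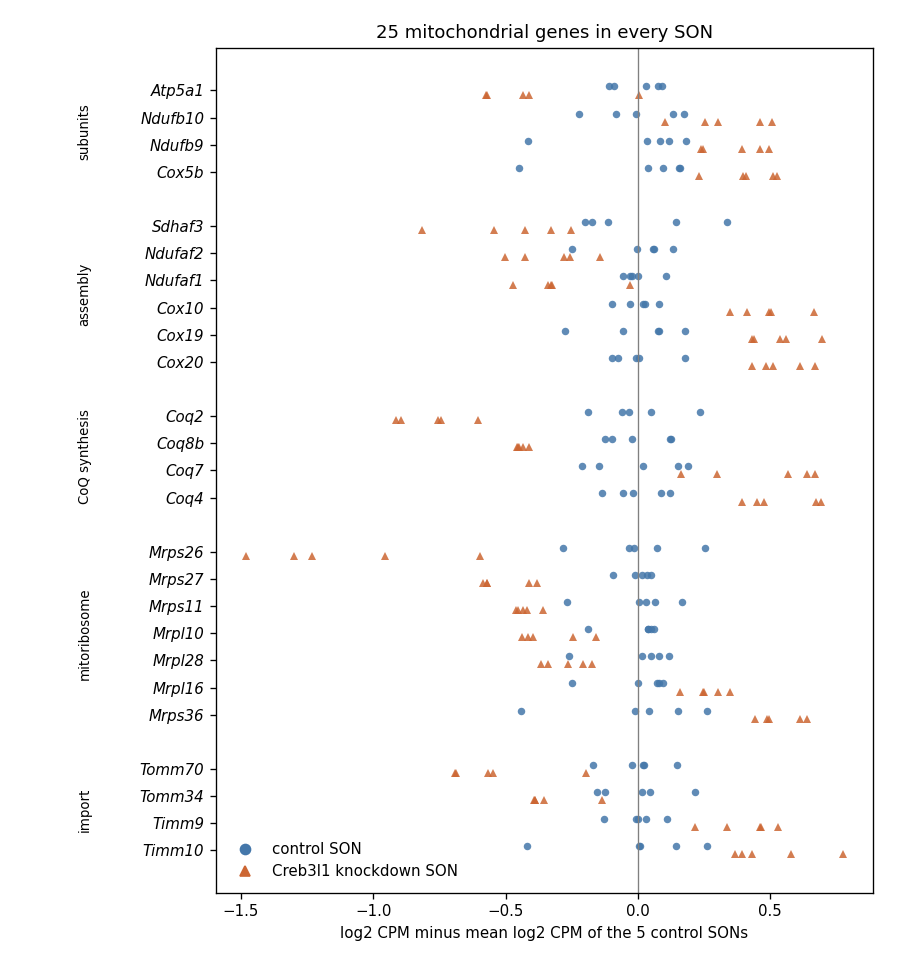
Log2 CPM of each gene in every SON relative to the mean of the 5 control SONs, circles for control and triangles for knockdown. The groups are apart in 17 of 25 genes; points that reach towards the other group include the control SON of animal 4 and the knockdown SON of animal 3.

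The 4 subunits of the complexes were Ndufb9 and Ndufb10, accessory subunits of the membrane arm of complex I, Cox5b, a subunit of complex IV, and Atp5a1, the alpha subunit of the ATP synthase head. None was past the threshold. Cox5b measured 151, 164, 157, 108 and 164 CPM in the control SONs of animals 1 to 5 and 209, 211, 193, 195 and 172 CPM in their knockdown SONs. The groups did not overlap, and the control SON of animal 4 lay far below the other controls. The means were 148 ± 23.5 and 196 ± 15.7 CPM (SD, n = 5 each), a log2 fold change of 0.40 (SE 0.12).

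Atp5a1 measured 627, 709.9, 704, 618 and 681 CPM in the control SONs and 494, 501, 668, 448 and 449.7 CPM in the knockdown SONs. The knockdown SON of animal 3 lay inside the control range and the other 4 below it. The means were 668 ± 43.0 and 512 ± 90.7 CPM (SD, n = 5 each), a log2 fold change of -0.38 (SE 0.12), which was -0.51 without the knockdown SON of animal 3 and then past the threshold. Ndufb9 had a log2 fold change of 0.36 (SE 0.11) and Ndufb10 of 0.33 (SE 0.10). These complex I subunits stood at places 1969 and 1972 of the 1999 named genes, the last of the 25, and what lay just beyond the table's end was not analysed here. The first of the 25 in that order was Coq2, at place 59.

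The 6 assembly factors divided by complex. The 3 factors of complex IV were all higher: Cox10, which makes the heme A precursor, Cox19, which takes part in copper delivery, and Cox20, a chaperone of newly made Cox2. Cox20 measured 38.1, 33.8, 32.0, 31.5 and 33.5 CPM in the control SONs and 53.6, 48.0, 47.1, 51.6 and 45.5 CPM in the knockdown SONs. Every knockdown SON was above every control SON. The means were 33.8 ± 2.62 and 49.2 ± 3.36 CPM (SD, n = 5 each), a log2 fold change of 0.54 (SE 0.08).

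Cox19 measured 25.5, 23.8, 21.7, 18.6 and 23.8 CPM in the control SONs and 36.5, 32.8, 33.3, 30.6 and 30.4 CPM in the knockdown SONs. Again the groups were apart, with the lowest control in animal 4. Its log2 fold change was 0.53 (SE 0.10), and that of Cox10 was 0.49 (SE 0.08). These 3 genes were past the threshold, and each stayed past it in all 10 fits that left out 1 SON. The factors of complexes I and II had negative values and were not past it: Sdhaf3, needed for the iron-sulfur subunit of complex II, at -0.48 (SE 0.15), Ndufaf2 at -0.32 (SE 0.11) and Ndufaf1 at -0.29 (SE 0.09), both of complex I. Leaving out the knockdown SON of animal 3 put Ndufaf1 and Ndufaf2 past it.

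The 4 genes of coenzyme Q synthesis split evenly. Coq2, the enzyme that joins the polyprenyl tail to the ring, measured 40.8, 49.2, 43.3, 36.6 and 40.1 CPM in the control SONs and 22.2, 22.5, 27.5, 24.8 and 24.9 CPM in the knockdown SONs. No knockdown SON reached the lowest control SON. The means were 42.0 ± 4.68 and 24.4 ± 2.16 CPM (SD, n = 5 each), a log2 fold change of -0.78 (SE 0.09), or 58.0% of control.

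Coq4, a protein of the same pathway, went the other way, with 9.33, 9.55, 8.82, 10.3 and 10.5 CPM in the control SONs and 13.5, 15.4, 13.2, 15.6 and 12.7 CPM in the knockdown SONs. The groups were again apart, in the direction opposite to Coq2. The means were 9.71 ± 0.70 and 14.1 ± 1.35 CPM (SD, n = 5 each), a log2 fold change of 0.54 (SE 0.10). Coq8b, an atypical kinase-like protein of the pathway, was lower at -0.44 (SE 0.07), and its knockdown SONs lay close together, between 40.2 and 41.4 CPM against 50.5 to 60.2 in the controls. Coq7, a hydroxylase of a late step, had a value of 0.47 (SE 0.13), with the knockdown SON of animal 5 at 11.7 CPM inside the control range of 9.05 to 12.0. Coq2, Coq4 and Coq8b were past the threshold in all 10 fits that left out 1 SON, and Coq7 was past it only without the knockdown SON of animal 5.

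Genes with ribosomal names were mostly lower, 5 of 7, where 58.7% of the 1990 tested genes with a name were lower. Mrps26, a protein of the small subunit, had the largest change of the 25 genes. It measured 119, 82.1, 98.7, 97.6 and 105 CPM in the control SONs and 42.5, 40.5, 65.9, 51.5 and 35.7 CPM in the knockdown SONs. The groups were apart, and the highest knockdown SON was that of animal 3. The means were 100.5 ± 13.3 and 47.2 ± 11.9 CPM (SD, n = 5 each), a log2 fold change of -1.09 (SE 0.17), or 47.0% of control. It stayed between -1.26 and -1.03 in the fits that left out 1 SON.

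Mrps27 and Mrps11, also of the small subunit, were lower at -0.50 (SE 0.07) and -0.43 (SE 0.08). Of the large subunit, Mrpl10 was lower at -0.33 (SE 0.08), Mrpl28 was not past the threshold at -0.27 (SE 0.08), and Mrpl16 was not past it at 0.26 (SE 0.09). The 3 small-subunit genes thus had larger changes than the 3 large-subunit genes, a comparison of described values with no test. Mrps36 carries a ribosomal name but is known as a part of the 2-oxoglutarate dehydrogenase complex of the tricarboxylic acid cycle, and RefSeq lists it as Kgd4.

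Mrps36 measured 19.9, 21.4, 18.4, 13.2 and 17.7 CPM in the control SONs and 27.9, 25.2, 27.4, 25.1 and 24.3 CPM in the knockdown SONs. Every knockdown SON was above every control SON, with the lowest control in animal 4. The means were 18.1 ± 3.11 and 26.0 ± 1.56 CPM (SD, n = 5 each), a log2 fold change of 0.52 (SE 0.12). Without this gene, 5 of the 6 ribosomal proteins were lower and 4 were past the threshold, all lower. With it 5 of 7 were past the threshold. The count was 3 when the control SON of animal 3 or 5, or the knockdown SON of animal 1, 2 or 4, was left out, through the loss of Mrpl10 and Mrps36. Mrpl10 also lost its call without the control SON of animal 1 or of animal 2, and Mrpl28 gained one without the control SON of animal 4 or the knockdown SON of animal 3.

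The import genes divided by compartment. The outer-membrane receptor Tomm70 and the cytosolic co-chaperone Tomm34 were lower, and the partner small Tim chaperones of the intermembrane space, Timm9 and Timm10, were higher. Tomm70 measured 55.6, 69.2, 63.4, 63.5 and 61.5 CPM in the control SONs and 42.2, 42.8, 54.5, 38.8 and 38.7 CPM in the knockdown SONs. The groups did not overlap, though the knockdown SON of animal 3 came close to the lowest control. The means were 62.6 ± 4.87 and 43.4 ± 6.49 CPM (SD, n = 5 each), a log2 fold change of -0.53 (SE 0.10).

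Timm10 measured 20.4, 22.2, 18.6, 13.8 and 18.6 CPM in the control SONs and 27.6, 24.3, 24.9, 31.7 and 23.8 CPM in the knockdown SONs. The groups were apart, and animal 4 held both the lowest control and the highest knockdown SON. The means were 18.7 ± 3.13 and 26.5 ± 3.26 CPM (SD, n = 5 each), a log2 fold change of 0.50 (SE 0.13). Timm9 was higher at 0.40 (SE 0.08) and Tomm34 lower at -0.33 (SE 0.09), with the knockdown SON of animal 3 inside the control range for Tomm34. All 4 import genes were past the threshold. The count fell to 1, Tomm70, without the control SON of animal 3 or the knockdown SON of animal 1. It was 2 without the control SON of animal 5 or the knockdown SON of animal 2, 4 or 5, where Tomm70 and Timm9 were past it. Timm10 was also lost without the control SON of animal 1, and Tomm34 without that of animal 2.

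**Figure D3:**
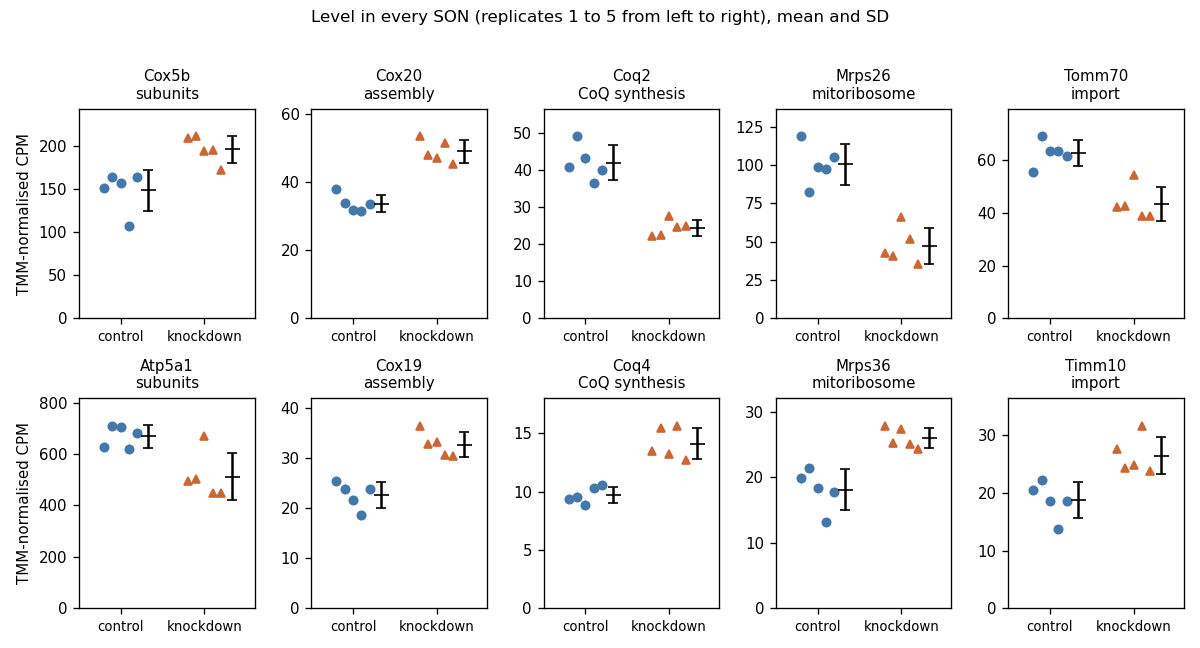
TMM-normalised CPM in every SON for the pair of genes with the largest change in each role, animals 1 to 5 from left to right within each group, with the mean and SD beside them; each axis starts at 0. The groups overlap in Atp5a1 and are apart in the other 9 genes.

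Single SONs stood out in the same way across many of these genes. The knockdown SON of animal 3 was the highest knockdown SON in 12 of the 13 lower genes (all but Coq8b), a position it held in 39.6% of all lower genes and 56.6% of the 1168 lower genes with a name. Averaged over the 13, it lay 0.27 below the control mean on the log2 scale, where the other 4 knockdown SONs lay 0.49 to 0.58 below. In the 12 higher genes it was 0.44 above, inside the 0.30 to 0.54 of the other knockdown SONs. The knockdown SON of animal 5 was the lowest knockdown SON in 11 of the 12 higher genes (33.6% of all higher genes, 47.6% of the 822 with a name), at a mean of 0.30 above the control mean.

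The control SON of animal 4 was the lowest control in 20 of the 25 genes, 9 of the 13 lower and 11 of the 12 higher, against 29.8% of all genes tested and 24.6% of the named ones. It lay 0.14 below the control mean in the lower genes and 0.24 below in the higher ones, so its position narrowed the difference in the first and widened it in the second. Without it the log2 fold change was 0.30 for Cox5b and 0.26 for Ndufb9, and Cox5b and Mrpl28 were then past the threshold. Its TMM factor, 1.07, was the highest of the 10, and the part of this factor in its place was not tested.

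**Figure D4:**
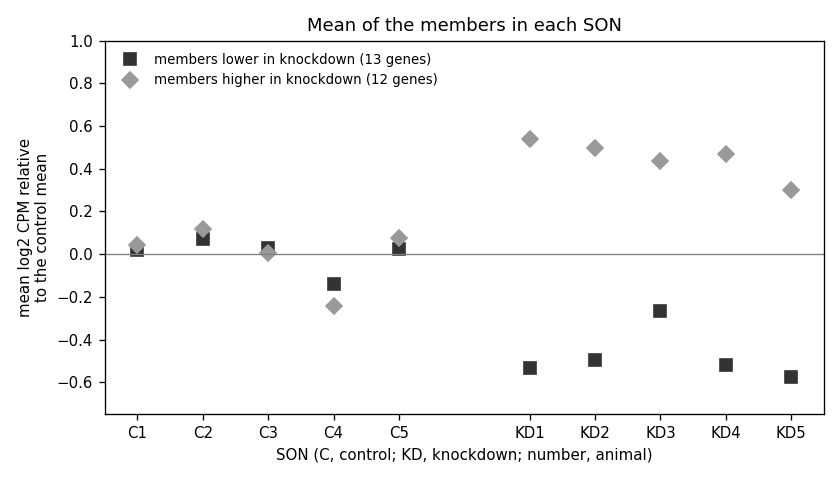
Mean log2 CPM relative to the control mean in each SON, squares for the 13 genes lower and diamonds for the 12 genes higher in knockdown. KD3 stands at -0.27 among the lower genes, KD5 at 0.30 among the higher genes, and C4 below 0 in both.

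The markers of magnocellular neurones did not share one order over these SONs. Pdyn, which encodes a co-expressed opioid precursor, and Sim1, a transcription factor these neurones need to form, were both lower in knockdown, at log2 fold changes of -1.97 (SE 0.48) and -1.18 (SE 0.23). Among knockdown SONs both were highest in animal 3 (Pdyn 259 CPM, Sim1 35.3 CPM) and lowest in animal 5 (27.4 and 15.6 CPM), and among controls both were highest in animal 4 (599.98 and 72.8 CPM). Creb3l1, the targeted gene, was also highest in animal 4 among controls (33.5 CPM), but among knockdown SONs it stood at 8.69 CPM in animal 3 and at 13.6 CPM in animal 5. Their part in the values of the mitochondrial genes was not tested. Of 7 magnocellular markers listed, 3 (these and Creb3l1) had a name in the table used. Of the oligodendrocyte precursor markers 1 of 4 had one, Pdgfra, at 0.42 (SE 0.11) with groups barely apart, 108 to 156 CPM in control and 156 to 211 CPM in knockdown. No marker listed for neurones in general, astrocytes, microglia, oligodendrocytes, endothelium or lymphocytes was among the named genes, and their levels were not analysed here.

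The order of the table favours genes with little spread within a group, so the spread of these genes is given as a description. The median coefficient of variation was 9.81% over the control SONs and 8.47% over the knockdown SONs, against 9.52% and 11.4% over the named genes and 15.6% and 17.3% over all genes tested. It ran from 3.93% to 17.2% among controls and from 1.26% (Coq8b) to 25.2% (Mrps26) among knockdown SONs.

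Other genes of the same organelle were taken from 6 pathway lists, and these too could be read only where the table gave a name, so that they share the choice by the same contrast. Of 29 genes of mitochondrial transcription, RNA handling and translation 9 were named, 8 of them lower and 6 past the threshold, all 6 lower. These were Tfb2m, a factor that starts mitochondrial transcription (-0.49, SE 0.10), Tfb1m, which methylates the ribosomal RNA (-0.47, SE 0.08), and Mtpap, the mitochondrial poly(A) polymerase (-0.38, SE 0.10). The others were Mtg1 (-0.30, SE 0.08) and Mtg2 (-0.28, SE 0.07), GTPases of ribosome assembly, and Lrpprc, which keeps mitochondrial messenger RNA stable (-0.27, SE 0.06). Gfm1 and Mtfmt had values of -0.21 (SE 0.07) and -0.24 (SE 0.09), and Mrm1 of 0.23 (SE 0.07), none of them past the threshold.

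Tfb1m measured 26.8, 28.9, 26.6, 25.04 and 28.6 CPM in the control SONs and 21.0, 20.1, 18.0, 20.5 and 18.4 CPM in the knockdown SONs. The groups were apart, and unlike in most lower genes of the 25 the knockdown SON of animal 3 was the lowest of its group. Of 26 further genes of respiratory assembly and coenzyme Q synthesis 4 were named: Coa5, of complex IV, was higher at 0.83 (SE 0.08), Bcs1l, of complex III, was lower at -0.50 (SE 0.08), and neither Ttc19 (-0.39, SE 0.12), of complex III, nor Pdss2 (-0.35, SE 0.10), a subunit of the enzyme that makes the coenzyme Q tail, was past the threshold.

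Coa5 measured 104, 117, 99.2, 101 and 108 CPM in the control SONs and 206, 192, 191, 188 and 163 CPM in the knockdown SONs, with all knockdown SONs above all controls. With Cox10, Cox19 and Cox20 it made 4 assembly factors of complex IV among the genes given here, all higher. The other complex IV factors listed were not among the named genes, and their levels were not analysed here. Of 14 tricarboxylic acid cycle genes 2 were named, Idh2 (0.31, SE 0.09) and Dlst (0.22, SE 0.06), neither past the threshold. Of 13 chaperones and proteases 2 were named, Htra2, a protease of the intermembrane space, lower at -0.34 (SE 0.09), and Trap1 at -0.19 (SE 0.05), not past it. Immp1l, 1 of 15 accessory import genes, had a value of -0.27 (SE 0.09), and none of 8 regulators of biogenesis was named.

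Over these lists 18 genes were named, 14 lower and 4 higher, where 58.7% of all named genes were lower. Of the 18, 9 were past the threshold (8 lower), beside 7.86% of all genes and 1271 of the 1990 named ones. DESeq2 put 18 past it (11.8% of all genes), a count nearly fixed by the choice of genes. Library size only put 15 past it, where 1480 of the 16286 genes tested were. In both settings 14 of those past it were lower. Blocking on animal left none of the 18 past it. The count was 4 without the control SON of animal 3 or 5 or the knockdown SON of animal 1 or 2, 6 without the control SON of animal 2, and 14 without the knockdown SON of animal 3. Tfb1m, Tfb2m, Coa5 and Bcs1l were past it in all 10 of these fits.

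**Figure D5:**
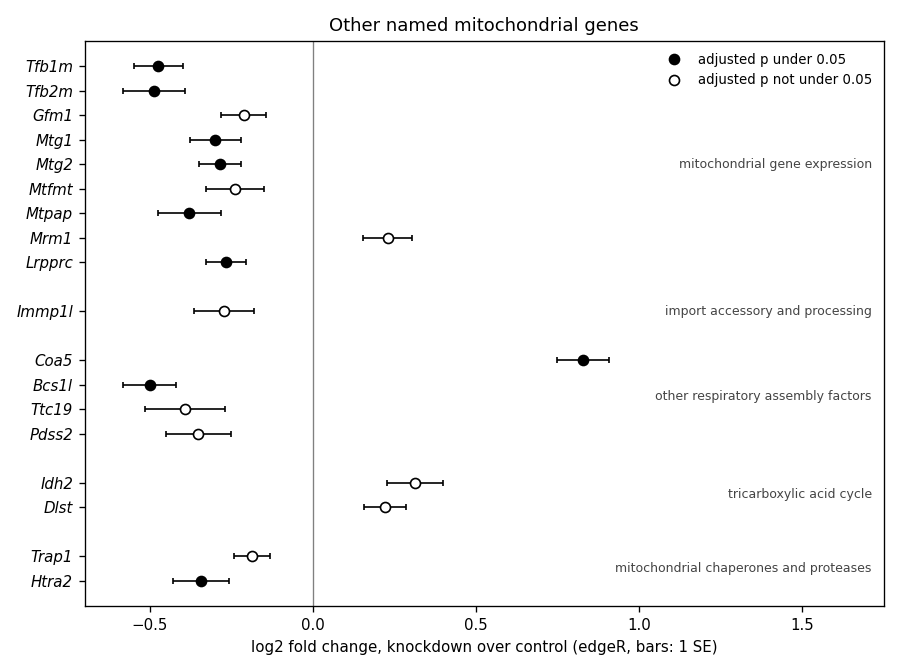
Log2 fold change, knockdown over control, of the 18 other named mitochondrial genes with 1 SE as the bar, grouped by pathway list; filled circles have an adjusted p under 0.05 in edgeR. In mitochondrial gene expression 8 of 9 lie below 0, and Coa5 at 0.83 is the farthest to the right.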

How the data were processed

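The data were RNA-seq counts for the left and right SON of 5 animals (10 libraries). Per the labels and the study's methods, the authors prepared stranded poly(A) libraries, aligned the reads with STAR and used featureCounts for counting, and the deposited values are raw whole-number counts per gene, without normalisation. Columns were matched to samples by name and checked against normalised counts over 1688 genes (0.0% variation for the named SON, at least 11.0% for any other). The supplementary table served only to name genes and choose members; its fold changes, p-values and normalised counts were not reported. The members and lists were chosen with earlier results of these data known.

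Genes were filtered with filterByExpr (minimum count 10, leaving 16286 of the 24286 genes with any count). TMM factors lay between 0.956 and 1.07. Genes were fitted with edgeR 4.0.16 in R 4.3.3 by the quasi-likelihood test, with Benjamini-Hochberg adjustment over all genes tested and a threshold of 0.05. The standard error was the fold change over the root of F. Levels are TMM-normalised CPM, not divided by transcript length, so they were not compared between genes. Totals were at least 29020948 counts per SON, and over all SONs the members had between 151 and 24484 counts. All replicate pairs differed by more than sampling noise (lowest chi-square per degree of freedom 29.1).

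Both SONs of an animal make up a pair. Over all genes their deviations from the mean of each group correlated at -0.12, 0.45, -0.44, -0.32 and -0.55 in the 5 animals, against a mean of 0.05 for SONs of different animals. The study's methods name DESeq2 and give no design formula. The fit had no pairing term, with the animal as a replicate block as an alternative. The others were DESeq2 1.42.0, RLE factors, library size only, limma-voom (limma 3.58.1), no filter, a minimum of 10 counts in each SON and leaving out each SON. Tests were checked on simulated counts. Members were named in full, and values in every SON given for the pair of largest changes in each role. Tfb1m and Coa5 were given in every SON after their values were seen. Whole gene families and the mitochondrially encoded genes were not analysed here, since no table used paired their identifiers with names.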

Additional observations from a re-analysis of the deposited data

Results flagged for a closer look

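In 6 of the 50 groups of 5 SONs (25 genes, control and knockdown), 1 SON stood far from the other 4, the gap to its nearest neighbour taking up more of the range than Dixon's critical value for 5 values allows. Chance alone flags about 1 in 20 groups, and the genes share the same SONs. The knockdown SON of animal 3 (replicate 3) was the high one in 3 of these. Atp5a1 stood there at 668 CPM against 448 to 501 CPM in the other knockdown SONs. Tomm70 stood at 54.5 CPM against 38.7 to 42.8 CPM, and Tomm34 at 60.4 CPM against 50.6 to 52.0 CPM.

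The control SON of animal 4 (replicate 4) was the low one in the other 3. Cox5b stood there at 108 CPM against 151 to 164 CPM in the other control SONs. Ndufb9 stood at 79.3 CPM against 108 to 119.95 CPM, and Mrpl10 at 47.0 CPM against 54.9 to 55.8 CPM.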

How the results depend on the processing

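No gene of the 25 changed direction in any of the 7 alternatives with all SONs or the 10 fits that left out 1 SON, and scaling, filter or tool moved no log2 fold change by more than 0.07. Counts past the threshold moved more, those with DESeq2 being nearly fixed by the choice of genes. Of the 25 genes 15 were past it with all SONs, 25 with DESeq2, none (0) with the animal as a replicate block, and 10 to 19 with 1 SON left out, lowest without the control SON of animal 3 or the knockdown SON of animal 1 and highest without the knockdown SON of animal 3. Of the 14 respiratory chain genes 6 were past it, 14 with DESeq2, 10 with library size only, 0 with the block and 6 to 9 with 1 SON left out. Of the 7 ribosomal genes 5 were past it, 0 with the block and 3 to 6 with 1 SON left out. Of the 4 import genes 4 were past it, 2 without the filter on low counts, 0 with the block and 1 to 4 with 1 SON left out.

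Over all genes the count was 1280, 2188 with DESeq2, 1480 with library size only and 9 with the block. It was 519 to 1699 with 1 SON left out, lowest without the knockdown SON of animal 1 and highest without that of animal 3. The block leaves 4 residual degrees of freedom in place of 8. Of the 25 genes described here, 10 were past the threshold in all fits that left out 1 SON and 5 lost the call in some of them. In none of these fits were 4 past it, and the others gained a call in at least 1. The cause of these shifts was not tested. The counts over whole families and the summed level of mitochondrially encoded genes were not run.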
